A study of Rattus norvegicus with 6 samples.

Results

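The kidney breaks lysine and tryptophan down through a set of enzymes that are mostly mitochondrial or cytosolic proteins of the proximal tubule. Here 10 genes of these pathways, 4 of lysine breakdown (Aass, Aldh7a1, Aadat and Gcdh) and 6 of the kynurenine route of tryptophan (Afmid, Kmo, Kynu, Haao, Acmsd and Qprt), were followed in the kidney RNA of 6 male Sprague Dawley rats. They were picked by name out of 17051 listed genes, each was listed with 1 transcript, and all 10 were among the 11553 genes tested, those that reached 30 counts in 1 or more rats. The AL group (rats 61, 71 and 88) ate standard powdered chow ad libitum. The HD group (rats 64, 67 and 69) ate, for a week, chow powder with an added mixture of amino acids composed like hemoglobin, the labelled hyperammonemic diet. The RNA came from kidney tissue with its cell types mixed, so fewer cells of a type and less RNA per cell cannot be told apart. The list was drawn up with the diet comparison of these rats already known, so the diet differences below are a description and support nothing on their own.

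Lysine is broken down by the saccharopine pathway. Aass couples lysine to 2-oxoglutarate and splits the product, Aldh7a1 oxidizes the resulting semialdehyde to aminoadipate, Aadat removes its amino group, Dhtkd1 with its partner subunits makes glutaryl-CoA, and Gcdh converts glutaryl-CoA to crotonyl-CoA. Tryptophan is opened by Tdo2, Ido1 or Ido2, and Afmid releases kynurenine, which also reaches the kidney by the blood. Kmo, Kynu and Haao carry kynurenine on to an unstable semialdehyde. Acmsd sends this semialdehyde toward complete oxidation, which joins the lysine route before Gcdh, whereas the share that escapes becomes quinolinate, which Qprt turns into a precursor of NAD. Aadat belongs to both routes, because it also converts kynurenine to kynurenic acid.

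Total estimated counts lay between 12499945 and 30466461 per rat, and every member had at least 554 counts in every rat. Levels within a gene are given as TMM-normalized CPM, counts scaled to a common library total. TMM is a scaling that sets the bulk of genes level between libraries. Levels of different genes are given only as TPM, the share of transcripts after scaling to the annotated transcript length. The 11 markers of the proximal tubule summed to 18832 to 25444 CPM per rat, with large shares from Slc7a13, Aqp1 and Miox, whereas Slc5a12 and Slc5a2 reached at most 0.30 and 1.38 TPM, and 7 hepatocyte markers summed to at most 22.0 CPM.

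The members spanned a wide range of levels. Aadat stood highest, with a mean over the 6 rats of 4809 ± 732 TPM (SD), and was in place 16 among the tested genes. Haao followed with 1148 ± 229 TPM, Gcdh with 648 ± 116, Aldh7a1 with 428 ± 70.9 and Qprt with 253 ± 37.3. Kynu, which cleaves the side chain of hydroxykynurenine, was the lowest at 63.3 ± 5.32 TPM. Aadat was therefore 75.9 times as abundant as Kynu by mean TPM, and each of the 10 genes lay above at least 79.8% of the tested genes.

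Neighbours in this order were compared within each rat by an exact sign-flip permutation test of the difference in log2(TPM + 1), two-sided, over 9 pairs. In 6 of the 9 pairs all 6 rats kept the order, which gives the smallest *P* value the exact permutation test can reach (*P* = 0.03125, Benjamini-Hochberg adjusted *P* = 0.046875). These were Aadat over Haao (4.21-fold), Haao over Gcdh (1.77-fold), Gcdh over Aldh7a1 (1.51-fold), Aldh7a1 over Qprt (1.68-fold), Qprt over Kmo (1.32-fold) and Acmsd over Kynu (2.08-fold). Kmo with 191 ± 30.8 TPM, Afmid with 160 ± 23.5, Aass with 154 ± 49.9 and Acmsd with 140 ± 47.1 were not separated from each other in the 3 pairs they form down this row, with exact permutation adjusted *P* values of 0.121, 0.719 and 0.719.

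**Figure D1:**
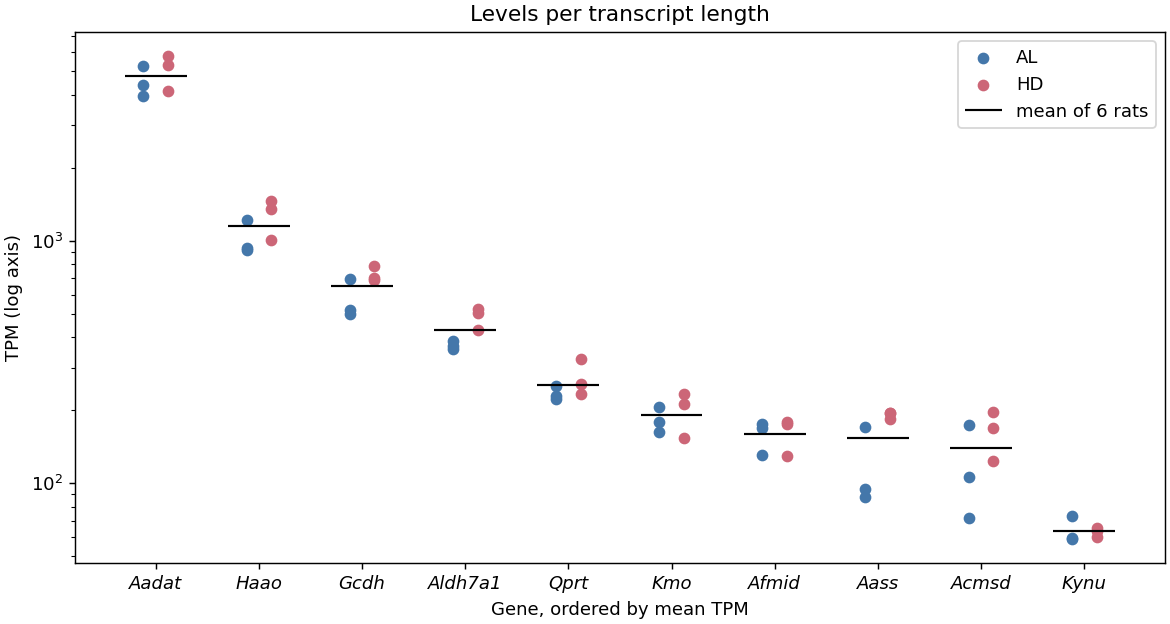
TPM of the 10 genes on a log axis, ordered by mean TPM, with AL rats in blue, HD rats in red and a line at the mean of 6 rats. Aadat lies above all other members in every rat, and Kynu lies below them in every rat.

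Of the enzymes that open the tryptophan ring, Tdo2 and Ido1 were barely detected, and Ido2 was not found by name among the 17051 listed genes. Tdo2 had at most 1 estimated count in a rat and Ido1 at most 4, with levels of at most 0.06 and 0.32 TPM, and neither could be tested. Each enzyme from Afmid to Qprt had a level of at least 59.0 TPM in every rat.

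The start regions of the genes were read from RefSeq promoter windows of build GRCr8, which reach from 250 bases before to 50 bases after the annotated start. A window was found for 9 of the 10 members, all but Acmsd. Their GC content ran from 41.7% in Kmo to 70.3% in Aldh7a1, with a median of 57.3% against 51.7% over all 33469 windows. On either strand, CCAAT was present in 6 of the 9 windows against 37.5% of all windows, GGGCGG in 4 of 9 against 33.1%, and TATAAA in none of the 9 against 14.2%. Aass is shown because it had the largest diet difference of the members, Aadat because it was the most abundant, and Kynu because it was the least abundant and differed least. Aass holds 3 copies of CCAAT and a copy of GGGCGG, and Aadat and Kynu hold a single CCAAT each. Capitals mark these motifs, which read ATTGG or CCGCCC where they lie on the opposite strand. The windows lie at chr4:52628762-52629061 (minus strand) for Aass, chr16:34555131-34555430 (minus strand) for Aadat and chr3:48188036-48188335 (plus strand) for Kynu.
Aass: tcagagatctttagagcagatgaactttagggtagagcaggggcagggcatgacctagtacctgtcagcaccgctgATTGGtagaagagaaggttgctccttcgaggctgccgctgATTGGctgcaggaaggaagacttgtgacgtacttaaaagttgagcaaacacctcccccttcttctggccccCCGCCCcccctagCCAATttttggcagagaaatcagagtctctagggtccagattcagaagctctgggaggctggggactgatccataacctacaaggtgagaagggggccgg
Aadat: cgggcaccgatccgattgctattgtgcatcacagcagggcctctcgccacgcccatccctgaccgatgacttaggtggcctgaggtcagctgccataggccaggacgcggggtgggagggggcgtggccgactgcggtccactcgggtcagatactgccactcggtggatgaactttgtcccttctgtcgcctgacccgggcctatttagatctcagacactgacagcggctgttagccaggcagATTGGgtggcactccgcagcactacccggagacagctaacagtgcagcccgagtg
Kynu: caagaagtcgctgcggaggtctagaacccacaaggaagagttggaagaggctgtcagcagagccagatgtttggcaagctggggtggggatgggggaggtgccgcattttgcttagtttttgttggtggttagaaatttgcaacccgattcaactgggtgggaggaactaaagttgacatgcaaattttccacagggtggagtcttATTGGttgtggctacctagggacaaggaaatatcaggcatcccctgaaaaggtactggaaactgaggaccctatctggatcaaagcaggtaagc

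With edgeR's quasi-likelihood test on all 11553 genes, every member had a mean difference toward the HD group, and none passed an adjusted threshold of 0.05. The test called 0% of all genes at that threshold (1224 genes, or 10.6%, had an unadjusted *P* value below 0.05), and DESeq2 called 1.58% of genes and no member. A log2 fold change above 0 was found for all 10 members and for 51.3% of all genes. The median log2 fold change was 0.32 over the members, 0.43 over the lysine genes and 0.23 over the tryptophan genes, against 0.0067 over all tested genes. The 10 tested proximal tubule markers had a median of 0.31, close to that of the members. Unadjusted *P* values below 0.05 with a higher HD level were found for Aass and Aldh7a1, against 4.66% of all genes. In no member did all HD rats lie above all AL rats or all below them, arrangements found in 7.25% and 7.01% of all genes. With library size alone in place of TMM, 9 members were above 0, against 36.5% of all genes.

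Aass, the bifunctional first enzyme of lysine breakdown, lies on chromosome 4 of build rn5 (49938569 to 49993864, 23 exons). Its level was 370.3, 159 and 184 CPM in rats 61, 71 and 88 of the AL group and 415, 419.6 and 357 CPM in rats 64, 67 and 69 of the HD group. The HD rats lay close together, well above rats 71 and 88, and rat 61 stood among them. The group means were 238 ± 116 and 397 ± 34.6 CPM (mean ± SD of 3 rats). This gave a log2 difference of 0.74 (standard error 0.31, edgeR adjusted *P* = 0.459). Without rat 61 the log2 fold change was 1.21 (standard error 0.14, edgeR adjusted *P* = 0.0973), and without rat 71 it was 0.52.

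Aldh7a1, the aminoadipate semialdehyde dehydrogenase (chromosome 18, 50814203 to 50846463), was at 503, 402 and 416 CPM in the AL rats and at 663, 654 and 498 CPM in the HD rats. The groups touched only where rat 61 lay just above rat 69. The means were 440.1 ± 54.5 and 605 ± 92.7 CPM (mean ± SD of 3 rats), a log2 difference of 0.46 (standard error 0.16, edgeR adjusted *P* = 0.406). This gene came nearest to the average course of the 10 members over the 6 rats, with a root mean square difference of 0.057 on the log2 scale. That average includes Aldh7a1 itself.

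Aadat, the aminotransferase shared by both routes (chromosome 16, 32665785 to 32702406), was at 4925, 4556 and 5827 CPM in the AL rats and 6996, 6539 and 4632 CPM in the HD rats. Rats 64 and 67 were above every AL rat, whereas rat 69 was below rats 61 and 88. Its log2 fold change was 0.25 (standard error 0.20), and it was 0.13 without rat 64 and 0.41 without rat 69. Gcdh, the glutaryl-CoA dehydrogenase (chromosome 19, 36976120 to 36982593), was at 902, 535 and 595 CPM in the AL rats and 992, 895 and 793 CPM in the HD rats. All HD rats exceeded rats 71 and 88 but only rat 64 exceeded rat 61, for a log2 difference of 0.40 (standard error 0.21) with all rats and 0.66 (standard error 0.15) without rat 61, against 0.26 without rat 71.

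**Figure D2:**
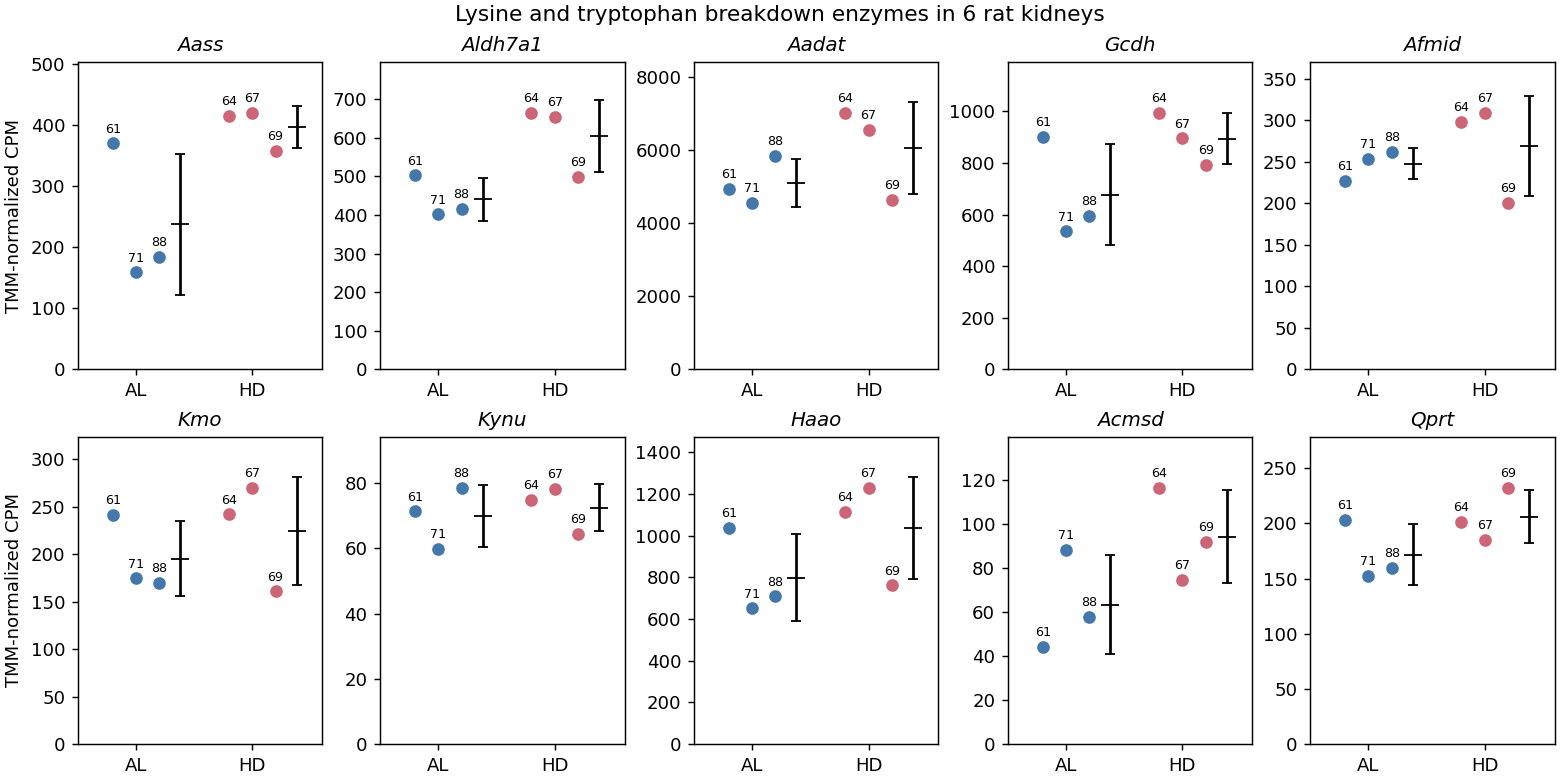
TMM-normalized CPM of each member in each rat, with rat numbers over the points and the group mean ± SD (*n* = 3) as a black bar to their right. In all 10 panels the AL and HD groups overlap, with rat 61 as the highest AL point in 6 panels and rat 69 as the lowest HD point in 8.

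Among the tryptophan genes, the early steps had small mean differences. Afmid, the formamidase that releases kynurenine, was at 227, 254 and 262 CPM in the AL rats and 299, 309 and 200.4 CPM in the HD rats, so that the HD group held both the highest and the lowest rat. Its log2 fold change of 0.12 (standard error 0.18) moved to 0.060, 0.038 and 0.0089 without rats 61, 64 and 67, and to 0.30 without rat 69. Kmo, the kynurenine hydroxylase, was at 241, 174 and 170.1 CPM in the AL rats and 242, 269.9 and 161 CPM in the HD rats, and rat 69 was again the lowest of all. Its log2 fold change of 0.20 (standard error 0.22) moved to 0.38 and 0.40 without rats 61 and 69, and to 0.13, 0.12 and 0.044 without rats 71, 88 and 67. Kynu was the steadiest member, at 71.3, 59.9 and 78.6 CPM against 74.8, 78.2 and 64.4 CPM, with the highest rat 1.31 times the lowest. Its log2 fold change of 0.051 (standard error 0.14) was smaller than its error, and it was below 0 with library size alone (-0.030) and when either rat 67 or rat 71 was left out.

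Haao, the dioxygenase that opens the hydroxyanthranilate ring, was at 1035, 650.2 and 708 CPM in the AL rats and at 1114, 1228 and 761 CPM in the HD rats. Rats 64 and 67 were the highest, rat 61 came next, and rat 69 was near rats 71 and 88. The means were 798 ± 208 and 1035 ± 244 CPM (mean ± SD of 3 rats), a log2 difference of 0.37 (standard error 0.24, edgeR adjusted *P* = 0.643). It was 0.61 without rat 61, 0.25 without rat 71 and 0.23 without rat 67.

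Acmsd and Qprt act at the branch between oxidation and NAD synthesis. Acmsd was at 44.0, 88.2 and 57.8 CPM in the AL rats and 117, 74.6 and 91.9 CPM in the HD rats. Here rat 61 was the lowest of all rats, whereas it was the highest AL rat in Aass, Gcdh and Haao, and rat 71 was above rat 67. The log2 fold change was 0.57 (standard error 0.27, edgeR adjusted *P* = 0.509), and it ranged from 0.37 without rat 61 to 0.89 without rat 71. Qprt was at 203, 153 and 159 CPM in the AL rats and 201, 185 and 232 CPM in the HD rats. It was the only member with its highest level in rat 69, and its log2 fold change was 0.27 (standard error 0.15), or 0.40 without rat 61. The ratio of Qprt to Acmsd in TPM was 3.51, 1.32 and 2.10 in the AL rats and 1.31, 1.89 and 1.92 in the HD rats, so the groups overlapped and the AL rats spread more widely than the HD rats.

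The same 2 rats stood apart within their groups in most members. Rat 61 was above both other AL rats in 6 of the 10 members (39.2% of all genes), and rat 69 was below both other HD rats in 8 of the 10 (37.9% of all genes). Without rat 61, the groups did not overlap in Aass, Aldh7a1, Gcdh, Haao and Qprt, against 16.7% of all genes higher in the HD rats. Without rat 69, they did not overlap in Aass, Aldh7a1, Aadat, Afmid, Kmo and Haao, against 17.3% of all genes. Acmsd was the sole member without overlap when rat 67 (12.5% of all genes) or rat 71 (12.7%) was left out, and there was none without rat 64 (9.72%) or rat 88 (9.51%). The summed proximal tubule markers were at 21110, 18832 and 18854 CPM in the AL rats and 25098, 25444 and 19543 CPM in the HD rats. Rat 61 was thus also the highest AL rat and rat 69 the lowest HD rat, a course that Acmsd and Qprt did not share. Of the 10 tested markers, 8 were higher in the HD group, with log2 fold changes from -0.19 (Slc27a2) to 1.07 (Slc22a6). Other cell types differed too, with 6 of 6 podocyte markers higher and 4 of 6 collecting duct markers lower in the HD group. The 6 listed leukocyte markers summed to 30.02, 86.2 and 53.8 CPM in the AL rats and 20.1, 21.3 and 32.2 CPM in the HD rats, and all 6 were lower in the HD group. The part of cell makeup in the differences of the members was not tested.

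**Figure D3:**
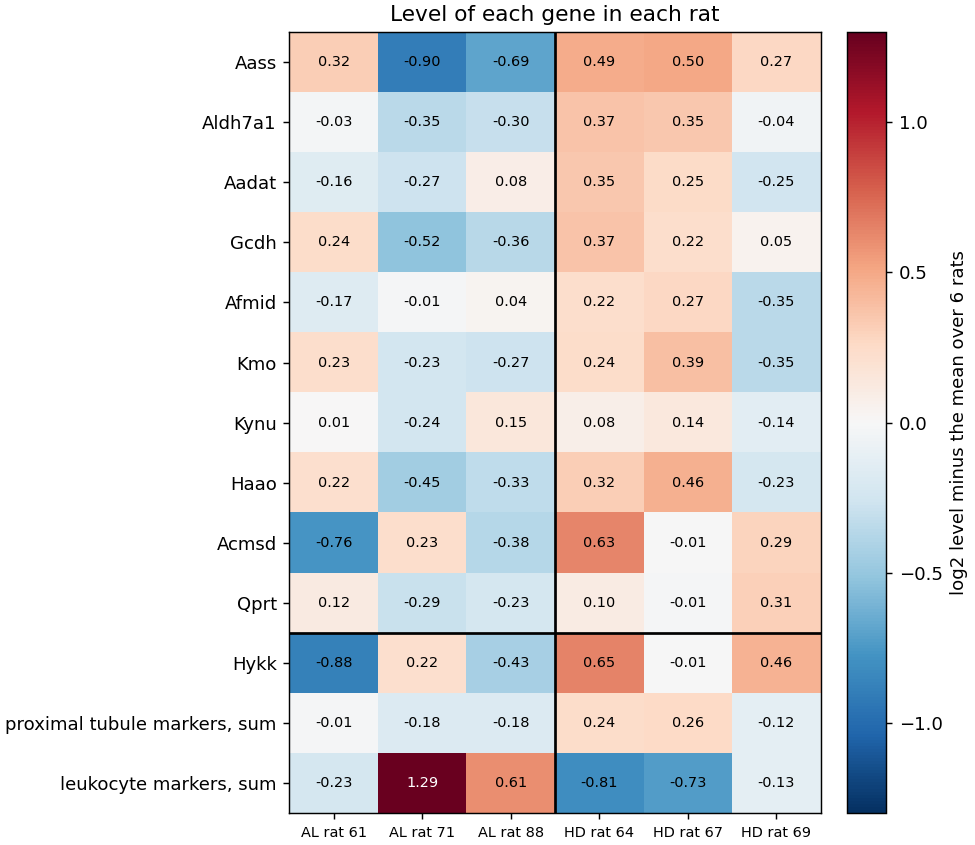
Log2 level of each member, of Hykk and of 2 marker sums in each rat, minus the mean over the 6 rats (red above, blue below the mean). Rats 64 and 67 are above the mean in nearly all rows of the members, rats 71 and 88 are mostly below it, and Acmsd and Hykk share a course of their own with the lowest value in rat 61.

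When counts were scaled to the summed proximal tubule markers in place of all genes, the median of all genes moved to -0.23 and that of the members to 0.087, and 6 of the 10 members were above 0 (16.8% of all genes). Aass was at 0.52, Acmsd at 0.32, Aldh7a1 at 0.21, Gcdh at 0.17, Haao at 0.12 and Qprt at 0.055 on the log2 scale. Aadat (-0.021), Kmo (-0.061), Afmid (-0.15) and Kynu (-0.20) had values below 0. This scaling moves all genes by nearly the same amount, so it could hardly change the standing of the members among all genes. For that reason the gap between the median of the members and that of all genes was 0.316 with this scaling and 0.313 with TMM. The 10 tested proximal tubule markers themselves had a median of 0.069 with this scaling.

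**Figure D4:**
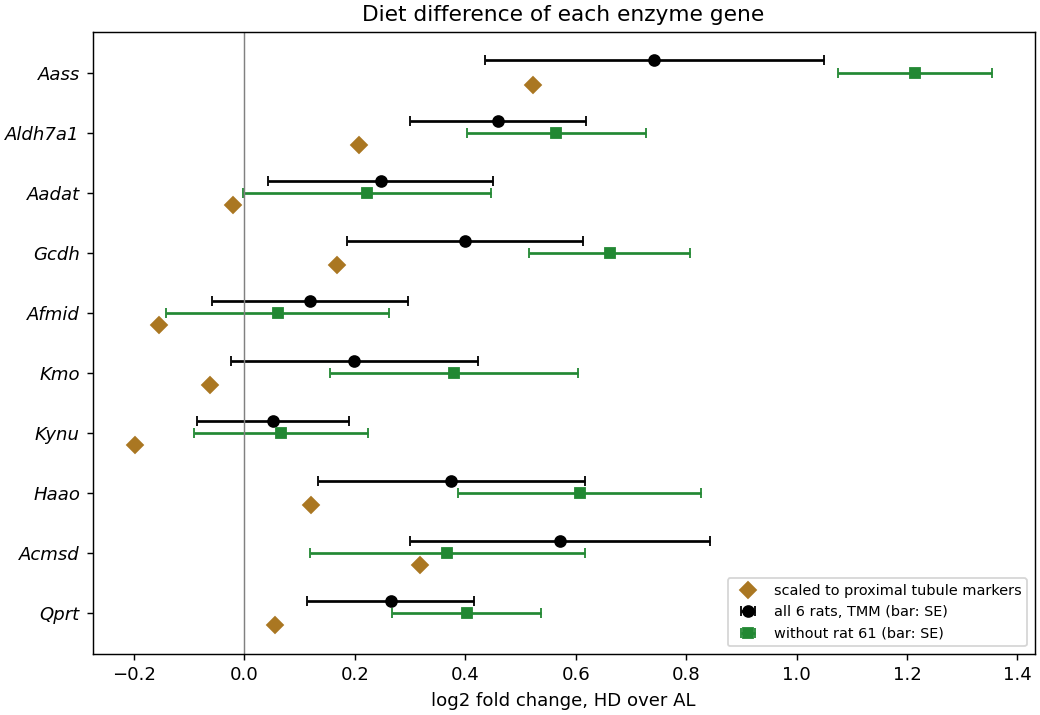
Log2 fold change, HD over AL, of each member with all 6 rats and TMM normalization (black, bar: SE), without rat 61 (green, bar: SE) and with scaling to the proximal tubule markers (brown). Aass shows the largest difference in all 3 settings, and the brown points lie on both sides of 0.

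The wider pathways were described from 7 further lists. Of 56 named genes, 52 were listed and 43 were tested, of which 36 were higher and 7 lower in the HD group (51.3% of all genes were higher). With scaling to the proximal tubule markers, 21 of the 43 were above 0, and their median log2 fold change was -0.0028. The share of all genes above 0 was 16.8% with this scaling. It moves all genes down by nearly the same amount, so this share adds nothing to the comparison with TMM. No gene had an edgeR adjusted *P* value of at most 0.05, and 8 were below an unadjusted 0.05, all higher in the HD group (4.66% of all genes). Of the 14 tested genes of the other lysine steps, 13 were higher, with a median log2 fold change of 0.29, and with the marker scaling 8 were above 0 and the median was 0.035. The carnitine list had a median of 0.072 over 4 genes and the list of NAD synthesis a median of 0.012 over 7 genes, against 0.0067 over all tested genes.

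Dhtkd1, the subunit that makes glutaryl-CoA between Aadat and Gcdh, was at 208, 190.3 and 184 CPM in the AL rats and 271, 218 and 247 CPM in the HD rats. All HD rats were above all AL rats, for a log2 difference of 0.34 (standard error 0.12, edgeR adjusted *P* = 0.409). Echs1, the hydratase acting on crotonyl-CoA, differed by 0.38 on the log2 scale (standard error 0.13, edgeR adjusted *P* = 0.406). Hadh, the next dehydrogenase, differed by 0.29 (standard error 0.12, edgeR adjusted *P* = 0.454). Both were also without overlap between the groups. Of the 14 tested genes of the other lysine steps, 5 had no overlap with HD higher, against 7.25% of all genes. In the pipecolate side route, the reductase Crym stood at 599 TPM on average, whereas the oxidase Pipox reached at most 5.58 TPM. Phykpl, which acts after Hykk in hydroxylysine breakdown, differed by 0.012 on the log2 scale (standard error 0.18).

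Hykk, the hydroxylysine kinase, was at 35.8, 76.9 and 49.0 CPM in the AL rats and 104, 65.8 and 91.0 CPM in the HD rats, a log2 difference of 0.68 (standard error 0.29, edgeR adjusted *P* = 0.467). Its order over the rats was that of Acmsd, with rats 64 and 69 highest and rat 61 lowest. The ratio of Acmsd to Hykk in TPM stayed between 2.87 and 3.49, although Acmsd itself varied 2.65-fold between rats in CPM. This pair was singled out after its values were seen.

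Of the enzymes beside the kynurenine trunk, Kyat1, an aminotransferase that also makes kynurenic acid, was at 311, 234 and 285 CPM in the AL rats and 409, 386 and 313 CPM in the HD rats. The HD rats were above the AL rats, by a narrow margin between rats 69 and 61, for a log2 difference of 0.42 (standard error 0.16, edgeR adjusted *P* = 0.426). In 2 of the 3 tested genes of this list the groups did not overlap, with HD higher, against 7.25% of all genes. Aadat exceeded Kyat1 in TPM by a ratio of 11.5 to 15.8 in every rat. Kyat3, also named for this list, was not found by name among the listed genes. Got2, a mitochondrial transaminase of broad use, differed by 0.25 on the log2 scale (standard error 0.12), and Aldh8a1, the dehydrogenase after Acmsd, by 0.31 (standard error 0.18).

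Outside these routes, Ddc, the decarboxylase of aromatic amino acids, was at 17.5, 6.10 and 6.22 CPM in the AL rats and 43.6, 26.2 and 25.0 CPM in the HD rats. All HD rats were above all AL rats, rat 61 was again the highest AL rat, and HD exceeded AL by a log2 difference of 1.68 (standard error 0.45, edgeR adjusted *P* = 0.398, DESeq2 adjusted *P* = 0.0128). It was the sole gene called by DESeq2 among the 43 tested genes of the 7 lists. DESeq2 called 1.58% of all genes and 2 of the 10 tested proximal tubule markers. Of 10 tested transporters of lysine and tryptophan, 9 were higher in the HD group (51.3% of all genes). The median difference of the 10 was 0.31 on the log2 scale, and 0.069 with the marker scaling. In 2 of the 10 the groups did not overlap, with HD higher, against 7.25% of all genes. They were the basolateral carriers Slc7a8 and Slc7a7, with mean levels of 4.85 and 7.18 TPM. Slc7a8 differed by 0.81 on the log2 scale (standard error 0.26, edgeR adjusted *P* = 0.406). Slc7a7 differed by 0.60 (standard error 0.23, edgeR adjusted *P* = 0.425).

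**Figure D5:**
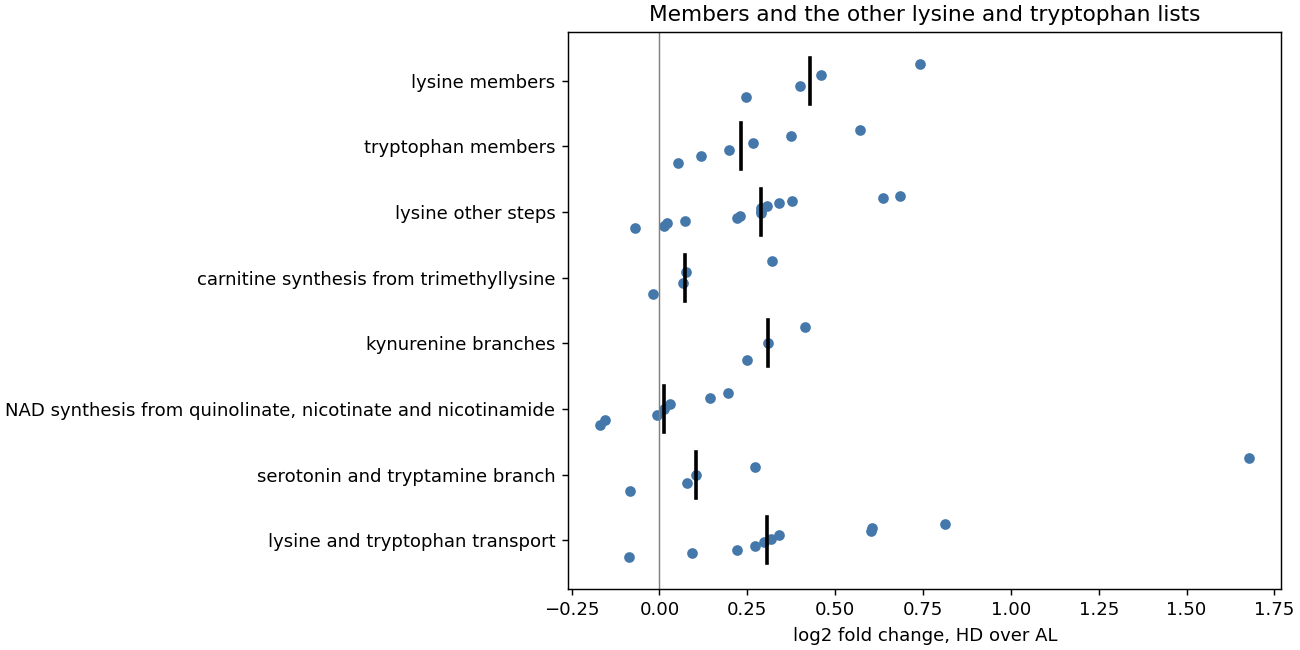
Log2 fold change, HD over AL, of each tested gene of the members and the other lists with tested genes, with a black line at the median of each list. The median is 0.43 for the lysine members and 0.23 for the tryptophan members, and the single point near 1.7 is Ddc.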

How the data were processed

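Kidney RNA of 6 rats was sequenced as single-end reads from poly(A)-selected libraries, 1 library per rat. The authors assigned reads to transcripts of the University of California Santa Cruz gene definitions for build rn5 with RSEM 1.1.15 at default parameters. They deposited an estimated count (expected count), not normalized, a posterior mean of that count, and TPM values scaled to transcript length and library. The groups follow the diet in the labels, which give no cage, batch or date, so *P* values measure the spread between these animals only.

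Estimated counts were summed per gene symbol and rounded, and genes with at least 30 in at least 1 rat were tested with edgeR 4.0.16 (quasi-likelihood, TMM, R 4.3.3, Benjamini-Hochberg adjustment). Standard errors are the absolute log2 fold change divided by the square root of F. DESeq2 1.42.0 was an alternative. The fit was tested on simulated data. No 2 libraries were alike within counting error (chi-square per degree of freedom at least 22.6), and 5 genes were found under older symbols.

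The members and lists were chosen with earlier results of these data known. All 10 members are named, with set steps of the lists and list genes at an unadjusted *P* value below 0.05. Promoter windows come from RefSeq (GRCr8) and were matched by symbol. FPKM values were not used here.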

Additional observations from a re-analysis of the deposited data

How the results depend on the processing

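Of 130 log2 fold changes of members under 13 alternatives, 123 kept their direction and none passed the adjusted threshold. The reversed values were those of Kynu with library size alone (-0.030), without rat 67 (-0.0076) and without rat 71 (-0.048, the lowest of its values without 1 rat, up to 0.15), and, with scaling to the proximal tubule markers, those of Kynu (-0.20), Afmid (-0.15), Kmo (-0.061) and Aadat (-0.021). That scaling also lowered the median of the members from 0.32 to 0.087. The median ranged from 0.22 to 0.45 over the 6 fits without 1 rat. The number of members without overlap, 0 with all rats, was 2 with library size alone, 1 with the marker scaling, 1 when 10 counts were required in all rats, and 0 to 6 without 1 rat. The share of all genes without overlap was not counted for library size alone, the marker scaling or the stricter count minimum. Those counts of members therefore stand without a background. Over all genes, edgeR called 0, DESeq2 182, edgeR with no count minimum 2, and the fits without 1 rat 0 to 4. The number of neighbouring pairs in the same order in every rat was 6, with CPM per kilobase 5, and 6 to 7 without 1 rat. No paired analysis was made, because the paper describes random assignment of rats to the diets and the labels name no pairs. With 3 rats in each group, an exact permutation test of a single gene reaches a two-sided *P* of 0.1 at best, and with 5 rats the sign-flip test cannot go below 0.0625.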

Other observations

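The genes whose course over the 6 rats lay nearest to the mean course of the members were Fgfrl1, Hibadh, Adat2, Armc1 and Hdhd2. Their root mean square differences were 0.016, 0.049, 0.049, 0.052 and 0.053 on the log2 scale, and the median over all other tested genes was 0.30. They were picked as the nearest of all these genes, so lying below this median follows from the choice. Hibadh, the hydroxyisobutyrate dehydrogenase of valine breakdown, was at 448, 371 and 391 CPM in rats 61, 71 and 88 of the AL group and at 533, 502 and 420.3 CPM in rats 64, 67 and 69 of the HD group. Among the members, the differences from this mean course ran from 0.057 in Aldh7a1 to 0.44 in Acmsd.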
